A study of Oryza sativa with 4 samples.

Results

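The SPL and GRF transcription factors of rice were followed in the flag leaf collar, the lamina joint between blade and sheath, which sets the angle of the leaf. The genes were chosen by name: every probe set whose single annotated gene carries an SPL number, the name LG1 or a GRF number as a symbol or synonym. This rule found 29 probe sets of 24 genes, out of 57258 probe sets and 17905 genes on the array. By family there were 15 probe sets of 11 SPL genes (LG1, also called SPL8, among them), 11 probe sets of 10 GRF genes, and 3 probe sets of 3 genes that share only the letters of the name. A further 4 SPL genes of the gene table (SPL5, SPL10, SPL11 and SPL13) had no probe set assigned to them alone.

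SPL proteins bind DNA through the SBP zinc finger domain and time the passage from juvenile to adult growth, the branching of shoot and panicle, and the size of the grain. Many of them are held down by the microRNA miR156, which cuts their transcripts. LG1 is the member without which a rice leaf forms no ligule, auricle or lamina joint. GRF proteins carry a WRC and a QLQ domain, act with GIF co-activators to keep young leaf cells dividing, and are held down by miR396.

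The study measured total RNA of this tissue on the Affymetrix Rice Genome array in wild-type plants and in the lc1 mutant, with 2 replicates of each genotype that the series' design text calls biological. Both genotypes were untreated as far as the labels say, and the labels give neither the cultivar, nor the plants' age, nor the lesion of lc1. In the literature LC1 is the gene GH3.1, whose enzyme joins auxin to amino acids, and the mutant is known for a wide leaf angle.

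Signals are given after scaling the arrays to one level, in arbitrary units, and each array has a floor, the 95th percentile of 23 control probe sets with no rice target, which lay between 9.90 and 12.96. The 4 scaling factors ran from 0.833 to 1.10. For the Gapdh control the 5′ signal over the 3′ signal came to 0.164 and 0.236 in the wild-type RNA and to 0.246 and 0.138 in the lc1 RNA. The 5′ signal was thus far below the 3′ signal on all 4 arrays, and the ranges of the genotypes overlapped. The part of this in differences between arrays, or between probe sets of a gene, was not tested. GH3.1 read 1.10 and 9.35 on the wild-type arrays, both below their floors, and 459.7 and 421.0 on the lc1 arrays, at least 39.8-fold higher (limma adjusted p = 0.0502). Of the green leaf markers, 3 of 3 with a probe set (RBCS, CAB2R and RCA) were above the floor on 4 arrays, with summed signals of 14778 and 16657 in the wild type against 15278 and 17505 in lc1. Of 13 panicle and flower markers, 5 were at or under the floor on all 4 arrays (MADS3, MADS5, MADS6, MADS7 and MADS13), and the summed signal was 5074 and 4676 in the wild type against 2096 and 3513 in lc1, most of it from MADS14 and MADS15. MADS1, a flower identity gene, read 325.9 and 52.9 in the wild type against 35.4 and 162.7 in lc1. The shoot meristem and leaf base markers with a probe set, OSH71 and OSH1, were split. OSH71 was above the floor on all 4 arrays, at 64.0 and 85.8 in the wild type against 69.1 and 45.7 in lc1, and OSH1 was under it on all 4. Collar tissue here is a mixture of cells, so fewer cells of a type and less RNA per cell cannot be told apart.

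Most of the SPL and GRF genes with a probe set gave a signal in the collar, 15 of 21 being above the floor on all 4 arrays with at least 1 probe set. Of the 26 probe sets of the 2 families, 18 were above the floor on all 4 arrays, 12 of them SPL and 6 GRF. Another 2 were above it on both arrays of only 1 genotype, SPL16 in the wild type and GRF6 in lc1. SPL14, also called IPA1 and known as a regulator of plant architecture, sat at the floor, with 10.9 and 8.31 in the wild type against 12.7 and 8.26 in lc1, above the floor only on the first array of each. At or under the floor on 4 arrays were GRF7, GRF10 with both of its probe sets, GRF12 and 1 of the 4 probe sets of SPL4. The level of one probe set cannot be compared with that of another, so no order of abundance among the genes is given.

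**Figure D1:**
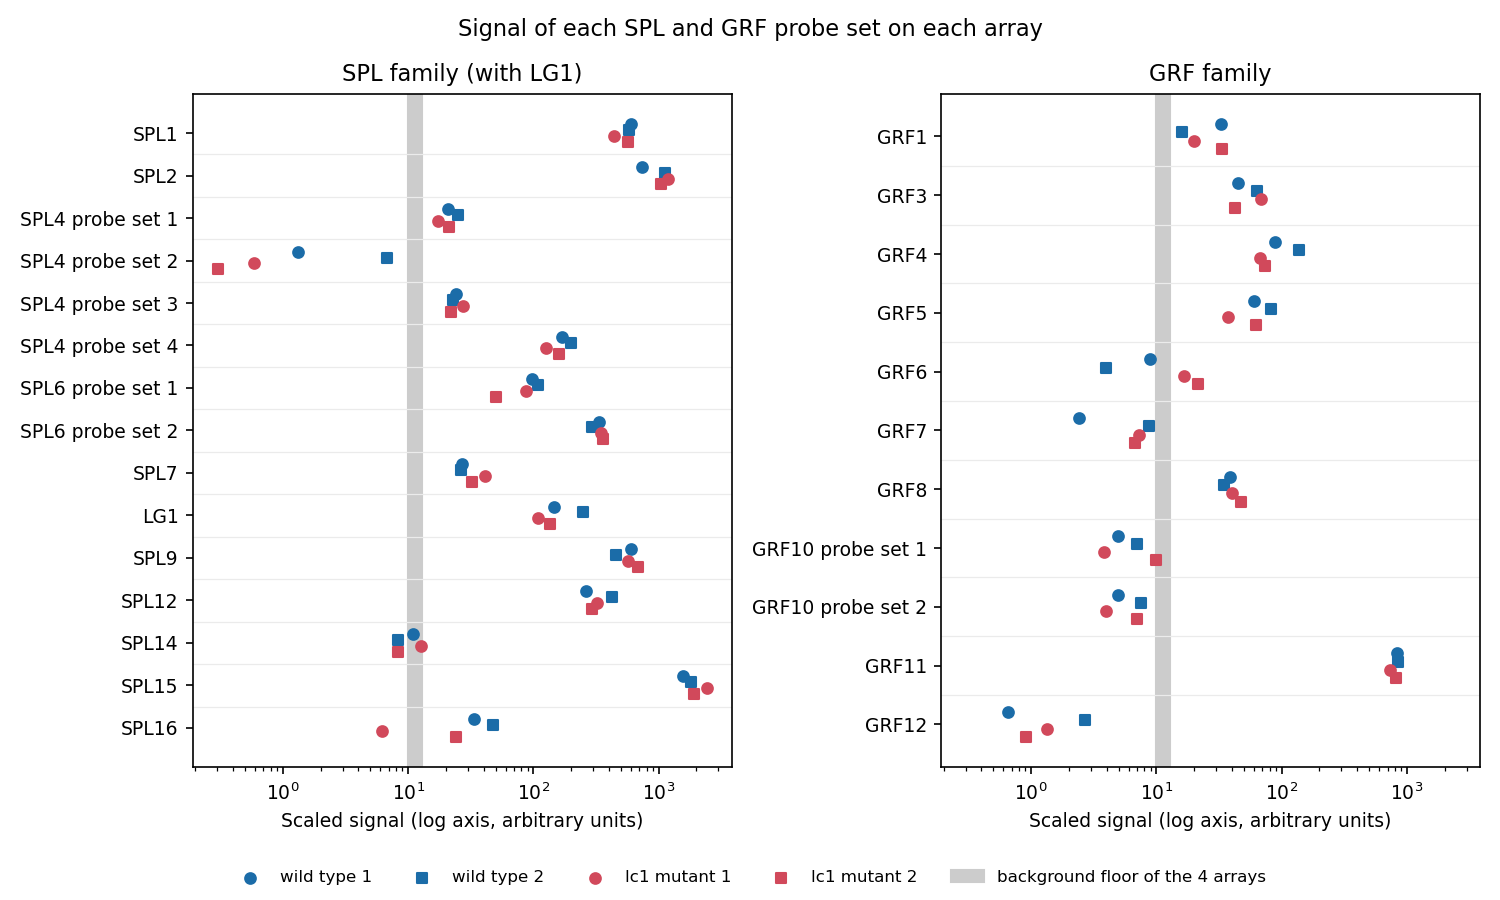
Scaled signal (log axis, arbitrary units) of the 15 SPL and 11 GRF probe sets, with 1 point per array, wild type in blue and lc1 in red. The grey band spans the floors of the 4 arrays, 9.90 to 12.96; SPL14, GRF7, GRF10, GRF12 and the second SPL4 probe set lie in or to the left of it, GRF6 has only its lc1 points to the right of it, and SPL16 has 1 lc1 point, that of lc1 mutant 1, to the left.

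The comparison of lc1 with the wild type asks whether these regulators of leaf growth and ligule formation differ in a mutant of the leaf angle. None of them passed the test. Of the 22 SPL and GRF probe sets that cleared the filter on dim signals, 0 had a limma adjusted p under 0.05, against 0.0262% of all 34355 tested probe sets (9). At an unadjusted limma p under 0.05 there were 2 of the 22, or 9.09%, beside 8.03% of all tested probe sets. These were SPL16, lower in lc1 as were 3.89% of all, and GRF6, higher in lc1 as were 4.14%. A difference of 2-fold or more was found for the same 2 of 22, beside 10% of all tested, and 17 of 22 differed by under 1.5-fold, beside 75.4%. The difference was above 0 in 12 of 22, beside 50% of all tested. On each of these measures the share of the SPL and GRF probe sets was near that of all probe sets. In 12 of 22 (54.5%) the genotypes did not overlap, beside 39.7% of all tested probe sets. Both lc1 arrays were above both wild-type arrays in 5, beside 19.7% of all, and below them in 7, beside 20%. The second wild-type array was at least 1.5-fold above the first in 4 of 22 (LG1, SPL2, SPL12 and GRF4), beside 13.4% of all tested. Gaps of that size also ran the other way. The first wild-type array was 2.05-fold above the second in GRF1 and 2.25-fold in GRF6, which was under the floor on both.

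The median log2 difference, lc1 minus wild type, was -0.030 over the 14 SPL probe sets and 0.042 over the 8 GRF probe sets, beside -2.96e-05 over all tested probe sets. The quartiles of the 22 were -0.35 and 0.23, and those of all tested probe sets -0.31 and 0.30. The sign of the SPL median turned, to 0.19, on the signals as deposited, where the median probe set itself stood at 0.22. It also turned, to 0.043, with each array centred on its own median, where the median probe set stood at 0.073. A stricter filter on dim signals gave 0.030, with the median probe set at -0.011. With 2 arrays per genotype the standard errors of the 22 ran from 0.19 to 0.86 log2 units with a median of 0.34. A change of modest size would not have passed, and large ones could fail too. SPL16, at -1.72, and GH3.1, at least 39.8-fold higher in lc1, did not pass (limma adjusted p = 0.560 and 0.0502). The absence of calls among the 22 therefore does not show that these genes were unchanged. All differences on the scaled signals are relative to the median probe set.

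**Figure D2:**
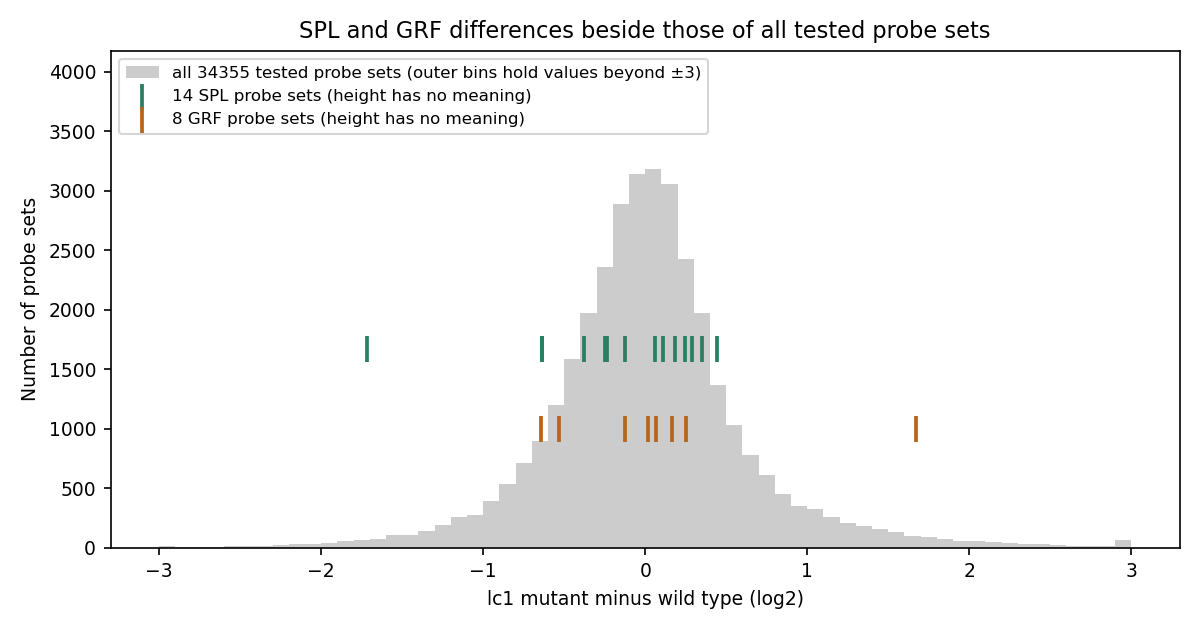
Histogram of the log2 difference, lc1 mutant minus wild type, of all 34355 tested probe sets (grey), with the 14 SPL probe sets as green ticks and the 8 GRF probe sets as brown ticks at arbitrary heights. All but SPL16 (-1.72) and GRF6 (1.67) fall within the central mass, between -0.64 and 0.44.

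LG1, the regulator of the ligule and lamina joint, read 145.0 and 249.7 in the wild type against 109.7 and 136.7 in lc1. The lc1 arrays both lay below the wild-type pair, but wild-type array 1 and lc1 array 2 were close together. The means were 197.4 ± 74.0 (SD, n = 2) and 123.2 ± 19.1 (SD, n = 2), and the log2 difference was -0.64 ± 0.33 (limma standard error, adjusted p = 0.672). The 2 wild-type arrays differed by 1.72-fold, more than the 1.55-fold between the genotypes. The 95% confidence interval of the lc1 level, as a multiple of the wild-type level, ran from 0.380 to 1.09. The log2 difference was -1.03 without wild type 1 and -0.24 without wild type 2.

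SPL16, known as GW8 for its effect on grain width, was the SPL gene with the smallest p. It read 33.8 and 47.2 in the wild type against 6.17 and 23.97 in lc1, the 6.17 being below that array's floor. Both lc1 arrays lay below both wild-type arrays and differed from each other by 3.89-fold. The log2 difference was -1.72 ± 0.63 (limma unadjusted p = 0.0247, adjusted p = 0.560), and its size depended on which lc1 array was used and on how dim signals were treated. With 16 units added to every signal it was -0.91, and with lc1 mutant 1 left out it was -0.74 (limma adjusted p = 0.772). With lc1 mutant 2 left out the fitted value was -2.70 (limma adjusted p = 0.00827), in a setting where 3.69% of all tested probe sets passed. That value sets the wild type against the 1 signal below its floor, and with this signal raised to the floor lc1 was at least 3.48-fold lower. Over all alternatives its limma adjusted p ran from 0.00827 to 0.986. The summed signal of the panicle and flower markers, most of it from MADS14 and MADS15, was lowest on lc1 mutant 1 too, at 2096 against 3513 on lc1 mutant 2. The markers did not all follow the sum, since MADS2, MADS4 and MADS16 were lowest on lc1 mutant 2, and the part of the markers in the SPL16 value was not tested.

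SPL15 and SPL7 differed by less. SPL15, a member without a miR156 site, read 1569 and 1814 in the wild type against 2432 and 1902 in lc1, where the lc1 pair exceeded the wild-type pair by a log2 difference of 0.35 ± 0.19 (limma adjusted p = 0.680). This was the SPL probe set with the smallest standard error, and its interval allowed from 0.947 to 1.72 times the wild-type level. SPL7, which acts in tillering and panicle branching, read 26.9 and 26.6 against 41.0 and 32.3, a log2 difference of 0.44 ± 0.36 (limma adjusted p = 0.773). Here the wild-type arrays were almost equal, and both lc1 arrays were above them.

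Some SPL genes were read by several probe sets, and these did not all give one direction. SPL6, known in rice as a brake on the stress response of the endoplasmic reticulum, had 2. On the first the signals were 97.6 and 109.7 in the wild type against 87.5 and 50.6 in lc1, a log2 difference of -0.64 ± 0.35 (limma adjusted p = 0.682). On the second they were 331.7 and 293.9 against 346.3 and 362.1, a log2 difference of 0.18 ± 0.24 (limma adjusted p = 0.861). The genotypes did not overlap on either probe set, yet lc1 was lower on one and higher on the other, so no direction can be given for SPL6. Without lc1 mutant 2 the first gave -0.24, and without lc1 mutant 1 it gave -1.03.

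SPL4 had 4 probe sets, of which 2 are of a type that can cross-hybridise with related genes. The fourth, one of that type, read 170.0 and 200.9 in the wild type against 125.9 and 160.5 in lc1, a log2 difference of -0.38 ± 0.28 (limma adjusted p = 0.750). The other probe set of the type gave -0.23 ± 0.42, with 20.6 and 24.8 against 17.4 and 21.2. The specific probe set above the floor gave 0.062 ± 0.39, with 24.2 and 22.8 against 27.2 and 22.2, and the remaining one was under the floor. The difference of the fourth probe set was not seen on the specific one, whose interval ran from 0.561 to 1.94 times the wild-type level.

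Among the remaining SPL genes the genotypes overlapped in SPL2, SPL9, SPL12 and SPL14. SPL9, known in rice for its part in copper response and in antiviral defence, had 601.1 and 458.3 in the wild type against 566.2 and 682.9 in lc1. SPL2 had 738.6 and 1126 against 1192 and 1044, and SPL12 had 262.5 and 425.6 against 323.3 and 291.6. In both genes the lc1 arrays were close and the wild-type arrays far apart, by 1.52-fold and 1.62-fold. SPL1 had 605.1 and 583.1 against 437.5 and 571.4, lower in lc1 mainly on lc1 mutant 1. The log2 differences of SPL1, SPL2, SPL9 and SPL12 lay between -0.25 and 0.29.

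Counted by probe set, the SPL genes known as miR156 targets and those known to lack the site had close medians. Of the measured genes, SPL2, SPL4, SPL7, SPL12, SPL14 and SPL16 are known in rice as targets, and SPL1, SPL6, SPL9, SPL15 and LG1 are known to lack the site. This grouping is from general knowledge and was written down with the values at hand. The 8 tested probe sets of the 6 targets had a median log2 difference of -0.030, with 4 above 0, and the 6 of the 5 other genes had one of -0.033, with 3 above 0. The range was -1.72 to 0.44 for the targets and -0.64 to 0.35 for the others. SPL4 among the targets and SPL6 among the others count more than once in these medians. SPL6 does so with opposite signs, -0.64 and 0.18. Medians with 1 probe set per gene are not given for these groups, so the closeness holds for probe sets and not for genes.

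**Figure D3:**
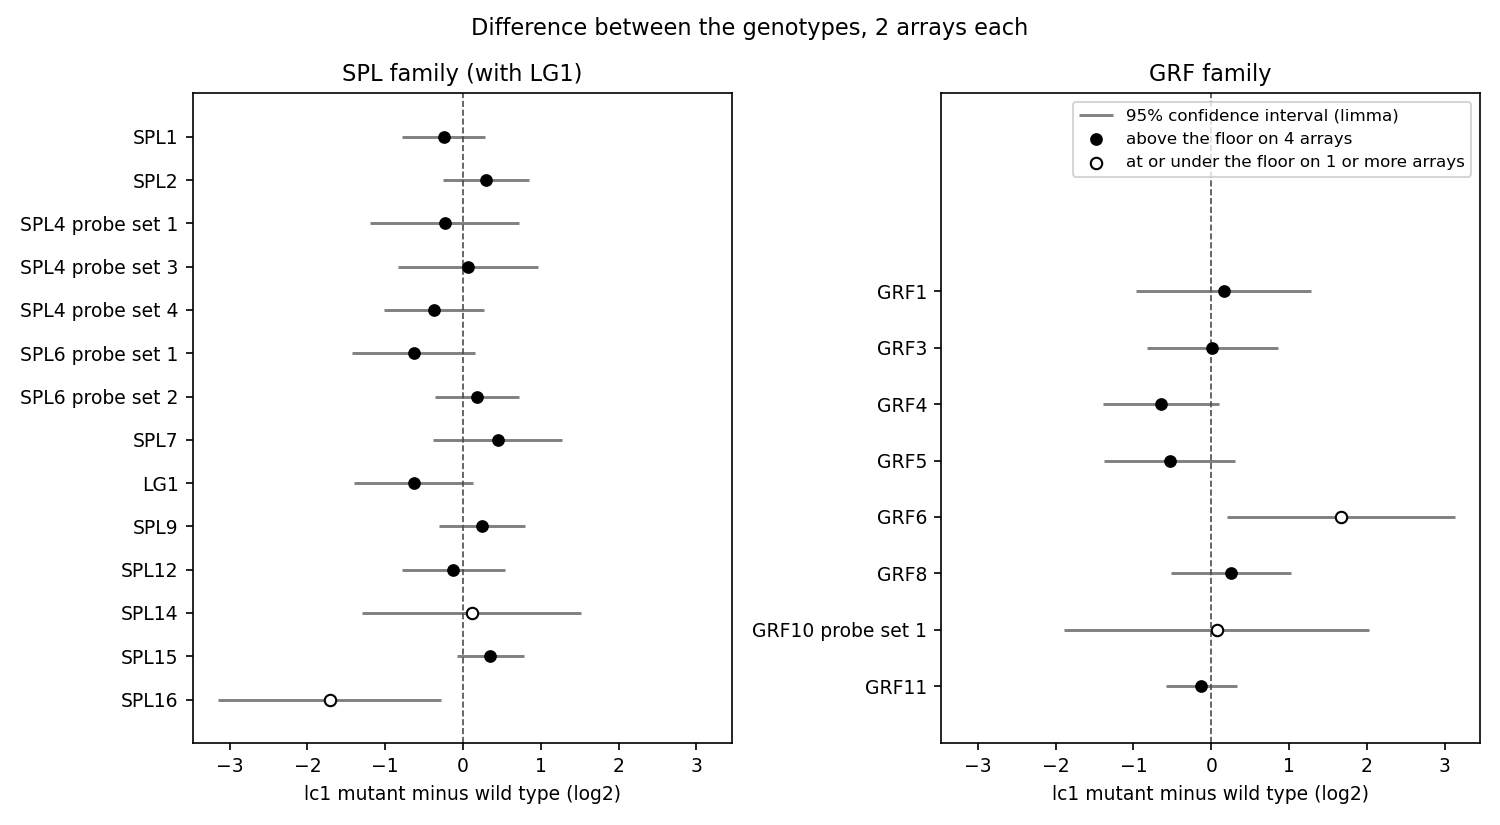
Log2 difference, lc1 mutant minus wild type, of each tested SPL and GRF probe set (points, 2 arrays per genotype) with its 95% confidence interval from limma (bars), where open points mark probe sets at or under the floor on at least 1 array. The intervals of SPL16 and GRF6 exclude 0 before adjustment and those of the other 20 include it.

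GRF4, also called GS2 and GL2, promotes grain size and the use of nitrogen. It read 88.1 and 138.4 in the wild type against 67.6 and 74.0 in lc1. Both lc1 arrays were below both wild-type arrays, which differed from each other by 1.57-fold. The log2 difference was -0.64 ± 0.33 (limma adjusted p = 0.663), with an interval from 0.382 to 1.07 times the wild-type level. It was -0.97 without wild type 1 and -0.32 without wild type 2.

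GRF6, known in rice to act in floral organ development, was the GRF gene with the smallest p. It was under the floor on both wild-type arrays, at 8.89 and 3.95, and just above it on both lc1 arrays, at 16.6 and 21.4. With the dim arrays raised to their floors lc1 was at least 1.71-fold higher. The fitted log2 difference was 1.67 ± 0.64 (limma unadjusted p = 0.0302, adjusted p = 0.580). With 16 units added to every signal before taking logs it was 0.65, so its size rests on how dim signals are treated.

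GRF5 had 59.8 and 82.1 in the wild type against 37.6 and 62.2 in lc1, so that 1 lc1 array lay between the wild-type arrays. Its log2 difference was -0.54 ± 0.37 (limma adjusted p = 0.730), and -0.17 without lc1 mutant 1. GRF8 had 38.6 and 34.8 against 40.4 and 47.3, a log2 difference of 0.25 ± 0.34 (limma adjusted p = 0.863). GRF11 read 836.3 and 850.7 against 734.6 and 812.5, slightly lower on both lc1 arrays. Its log2 difference of -0.13 ± 0.20 had an interval from 0.669 to 1.26 times the wild-type level, and its sign turned, to 0.09, on the signals as deposited.

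The genotypes overlapped in GRF1 and GRF3. GRF1, which is induced by gibberellin in growing rice stems and acts in leaf growth, had 33.0 and 16.1 in the wild type against 19.9 and 33.5 in lc1, and its arrays within a genotype differed more than the genotypes. GRF3 had 44.5 and 63.6 against 67.9 and 42.5, a log2 difference of 0.015 ± 0.37. GRF7, which in rice is known to control plant architecture and leaf angle, was at or under the floor on all 4 arrays, with signals between 2.41 and 8.72, so no comparison can be made for it. GRF10 and GRF12 were under the floor as well, with highest signals of 9.87 and 2.70.

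**Figure D4:**
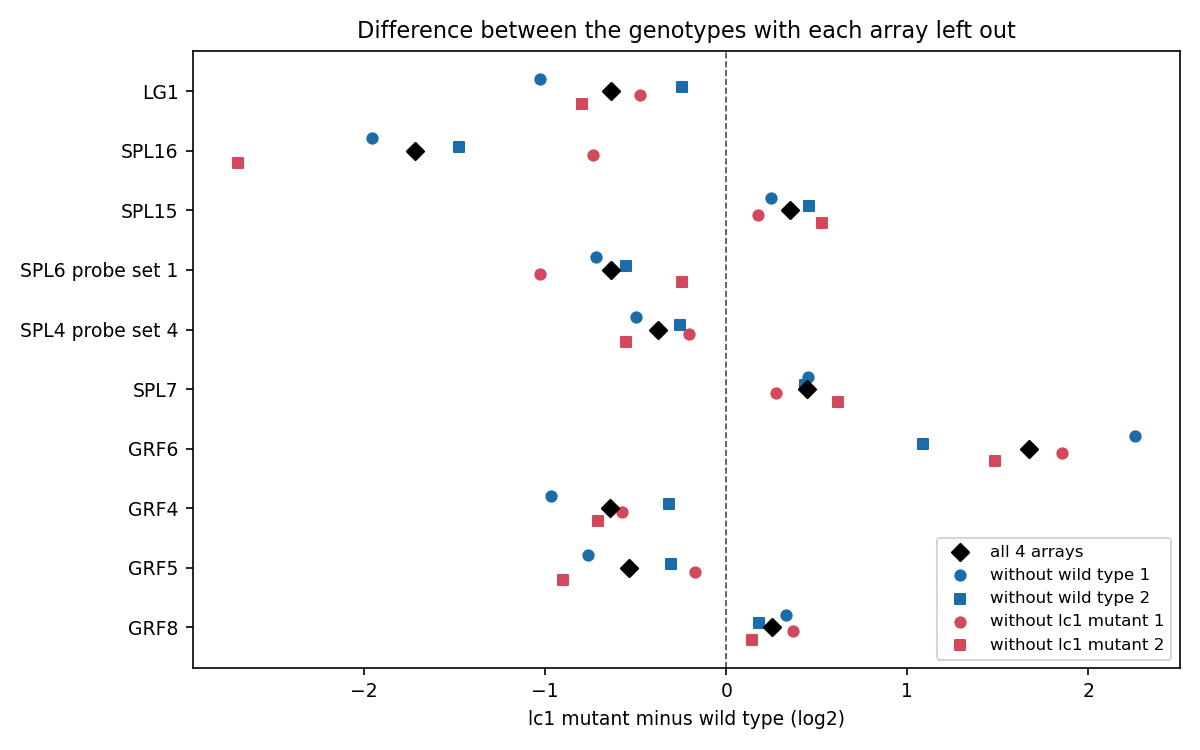
Log2 difference, lc1 mutant minus wild type, of the 10 SPL and GRF probe sets described in full, with all 4 arrays (black diamonds) and with each array left out in turn (blue for a wild-type array left out, red for an lc1 array). No point crosses 0 for these 10, which were picked by smallest p. In all but GRF5 the genotypes did not overlap, so leaving out 1 array could not turn the sign. SPL16 moves from -0.74 to -2.70 with the lc1 array that is left out.

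The 3 genes that share only the name belong elsewhere. HSFA4D, a heat shock factor whose synonym SPL7 comes from the spotted leaf mutants with lesion-like spots, read 149.4 and 139.4 in the wild type against 351.2 and 144.6 in lc1. Lc1 mutant 1 alone was high, and lc1 mutant 2 lay between the wild-type arrays. The log2 difference was 0.64 ± 0.40 (limma adjusted p = 0.713), which came to 0.0028 with lc1 mutant 1 left out and to 1.28 with lc1 mutant 2 left out (limma adjusted p = 0.0354, with 3.69% of all tested probe sets passing). Over all alternatives its limma adjusted p ran from 0.0354 to 0.999. LOC4352575, named SPL11, lies on chromosome 12 as the spotted leaf E3 ubiquitin ligase SPL11 does, and is not the SBP gene of that name. It had 1324 and 1472 against 1350 and 1589, a log2 difference of 0.069 ± 0.18. AT1, an acyltransferase with the synonym SPL18, was under the floor on all 4 arrays.

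Genes known to act with these families, or to pattern the leaf, gave 0 calls in 12 genes tested (limma, with 1 at an unadjusted p under 0.05). Of 13 such genes with a probe set, 12 were above the floor on all 4 arrays, and OSH1, a KNOX gene of the shoot meristem, was under it on all 4. The one with an unadjusted p under 0.05 was MADS34, a panicle branching gene, which read 213.1 and 224.3 in the wild type against 63.7 and 101.1 in lc1 (log2 difference -1.45 ± 0.31, limma adjusted p = 0.267). It passed without lc1 mutant 2 (limma adjusted p = 0.00563) and did not without lc1 mutant 1 (limma adjusted p = 0.171), and over all alternatives the limma adjusted p ran from 0.00563 to 0.861. Of the 8 panicle and flower markers tested, 0 were called by limma, 3 had an unadjusted p under 0.05 (MADS2, MADS14 and MADS15, each lower in lc1), and 4 had both lc1 arrays below both wild-type arrays. MADS16 gave a log2 difference of -0.087 and MADS4 one of -0.23. The part of these markers in the value of MADS34 was not tested.

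In 5 of the 12 both lc1 arrays were below both wild-type arrays and in 1, PLA3, both were above, beside 20% and 19.7% of all tested probe sets. The 5 were MADS34, SMOS1, RSR1, NAL1 and CR4. SMOS1, an AP2-type factor of organ size and leaf angle that works with brassinosteroid signalling, read 297.3 and 369.2 against 205.6 and 247.2 (log2 difference -0.56 ± 0.26, limma adjusted p = 0.643). RSR1, of the AP2 family, read 586.1 and 1069 against 544.7 and 578.6, so that it differed from lc1 mainly on wild-type array 2, as did LG1 and GRF4. NAL1, which sets leaf width, gave -0.28 ± 0.24, and CR4, a receptor kinase, gave -0.38 ± 0.33.

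For genes that act with SPL14 in strigolactone or gibberellin signalling, and for GSK2 and TPR2, the genotypes overlapped on the probe set used for each gene. D14, the strigolactone receptor, gave 0.12 ± 0.18, the F-box protein gene D3 gave -0.22 ± 0.37 and the DELLA gene SLR1 gave 0.16 ± 0.25. GSK2, a kinase of brassinosteroid signalling that acts on GRF4 protein, read 268.6 and 283.3 against 221.4 and 273.3, a log2 difference of -0.17 ± 0.26. TPR2, a TOPLESS-related co-repressor, gave -0.078 ± 0.19 on the probe set used and -0.80 ± 0.26 on another (limma unadjusted p = 0.0138, adjusted p = 0.487), so its probe sets disagreed in size. The latter is of the type that can cross-hybridise with related genes, and the one used is of a type that can match several transcripts. RSR1 was read on a probe set of the several-transcript type, and PLA3 and JMJ706, another of the genes tested, on the cross-hybridising type. The GIF co-activators of the GRF proteins were not analysed here.

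**Figure D5:**
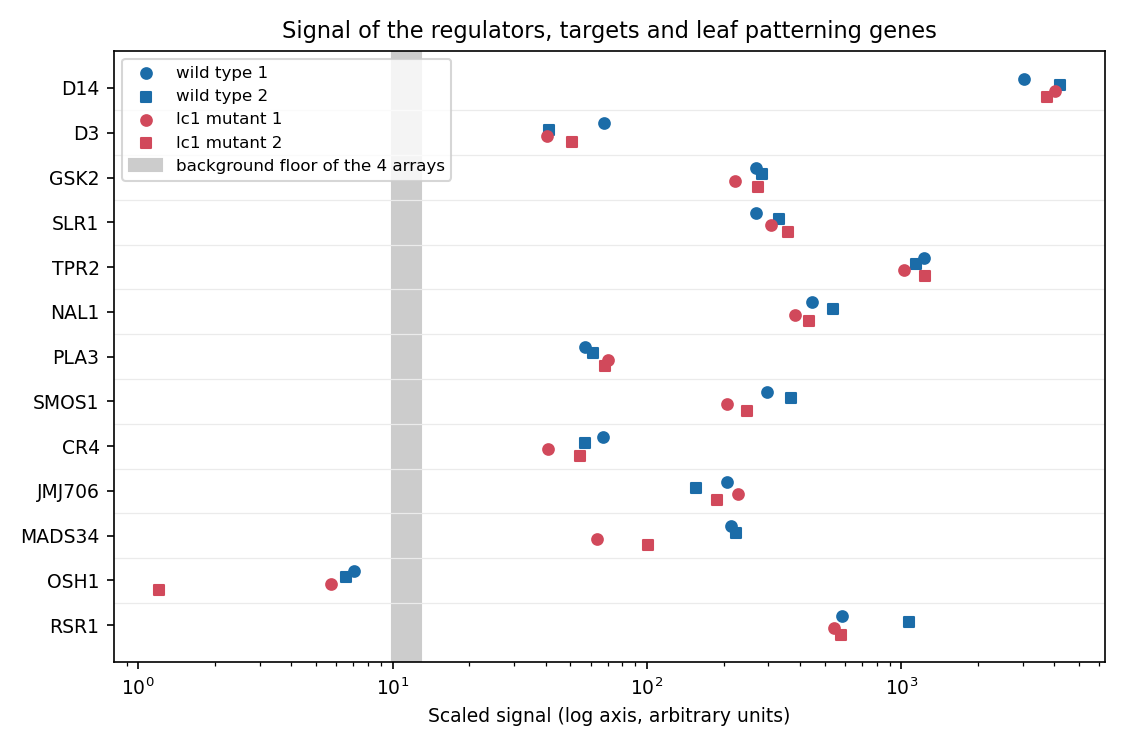
Scaled signal (log axis, arbitrary units) of the 13 genes known to act with SPL and GRF factors or to pattern the leaf, with 1 point per array, wild type in blue and lc1 in red, on the probe set of each gene with the highest mean log2 signal. The grey band spans the floors of the 4 arrays; MADS34 shows the widest gap between the genotypes of the 12 genes above the floor, and OSH1 lies to the left of the band.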

How the data were processed

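The deposited intensities are the MAS 5.0 signal of each probe set on a linear scale, from the Affymetrix Microarray Suite per the series' design text, with R 1.8.0 named in the submitters' processing notes. Detection calls, probe-level data and the authors' own tests were not used here. The table lists 57381 probe sets, of which 123 are Affymetrix controls and were not tested. The 18 values of 0 were set to 0.05 and log2 was taken. Probe sets with a mean log2 signal at or above the 40th percentile were kept (34355). Since the deposited signals were not at one level, each array was shifted by its median deviation from the probe set means before the test, so that test and printed difference share one scale. Genotypes were compared with limma 3.58.1 in R 4.3.3 (lmFit, eBayes with an intensity trend, 2-sided, Benjamini-Hochberg over all tested probe sets, threshold 0.05). The script was tested on simulated data. No 2 arrays shared more than 1.64% of identical signals. The number of arrays limits the precision.

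Names came from the platform annotation and the gene table of assembly ASM3414082v1. The members, lists and scaling were chosen with earlier results of these data known. Described in full are LG1 and the 6 SPL and 4 GRF probe sets with the smallest p among those above the floor on both arrays of a genotype; the other genes are given in brief. Of 20 partner genes with a probe set, 7 were left out because the gene table gives their name to another gene or cannot tell them apart, and each of the rest is counted by its probe set of highest mean signal. Partner genes other than MADS34 were named with their values known. The genes' miR156 class was listed by hand. Protein, promoter and miRNA site checks were planned and not run, as no sequences were used. Alternatives were 4 other scalings, 2 filters, an added constant, no intensity trend, the replicate number as a block and leaving out each array.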

Additional observations from a re-analysis of the deposited data

How the results depend on the processing

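The count of SPL and GRF probe sets called by limma was 0 with the arrays scaled by their median deviation and under each of the 9 other settings that keep all arrays, and from 0 to 1 with an array left out, the 1 being SPL16 without lc1 mutant 2, where the lone lc1 array lay below its floor. A lone array is assumed to vary like those of the other genotype. The count over all tested probe sets, 9, was unstable: 1 on the signals as deposited, 20 with each array centred on its own median, 4 after quantile normalization, 1 with no filter, 29 with the stricter filter, 29 with 16 added to each signal, 0 without an intensity trend (2421 at an unadjusted limma p under 0.05) and from 4 to 1268 with an array left out. The stricter filter tests fewer probe sets, and the cause of the other moves was not tested. The partner genes gave 0, and from 0 to 1 with an array left out (MADS34). The SPL median, -0.030, was 0.19 on the signals as deposited, where the median probe set was at 0.22. It was 0.043 with each array centred on its median, 0.030 with the stricter filter and -0.12 with no filter. With 1 probe set per gene it was 0.11, and with an array left out it ran from -0.12 to 0.031. The GRF median, 0.042, was 0.26 on the signals as deposited and from -0.21 to 0.16 with an array left out. It was also below 0 with all arrays kept, at -0.13 with the stricter filter. With trimmed mean scaling it was -0.011, where the median probe set was at -0.053. Of 25 tested probe sets caught by the name rule, 15 kept their sign in every setting and 10 did not. The 10 described in full were among the 15, but they had been picked by smallest p. In all of them but GRF5 the genotypes did not overlap, so leaving out 1 array could not turn the sign. For SPL16 and GRF6 among them the stricter filter left no value. Arrays with the same replicate number, 1 or 2, in their titles showed no shared shift. Over the tested probe sets the differences between replicates of the 2 genotypes correlated at r = -0.036. This cannot show whether the plants or batches were paired, and the labels do not say. With the replicate number as a block 644 probe sets passed, 0 of them SPL or GRF, and 1 partner gene (MADS34, limma adjusted p = 0.0207).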
